A study of Mus musculus with 12 samples.

Results

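The genes described here are 40 interferon-stimulated genes of the mouse kidney, chosen by symbol from the 45777 genes of the deposited expression table. All 40 symbols were found in the table, and all 40 passed the filter on low counts. Their levels were read from 12 bulk RNA-seq libraries of wild type male C57BL/6 kidney, 3 per group. The normal group received neither cisplatin nor vesicles. In the other groups, cisplatin, a platinum-based chemotherapy toxic to renal tubules, was injected intraperitoneally at 9 mg/kg each week for 5 cycles. These mice then received 5 intravenous injections at intervals of 3 days. The injections held phosphate-buffered saline (PBS group), 200 µg of iMSC-EVs (EV200 group) or 400 µg of iMSC-EVs (EV400 group), where EVs are extracellular vesicles and iMSC is the labels' name for the source cells. Kidneys of the cisplatin groups were collected 3 days after the last injection. The normal mice are not said to have had any injection, so the PBS group differs from them in cisplatin and in the injections, and the effects of these cannot be told apart. The series title names tubulointerstitial fibrosis after cisplatin and its attenuation by the vesicles. The comparisons therefore ask how the interferon-stimulated genes stood after cisplatin, and whether their levels differed in kidneys given vesicles.

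Interferons are secreted proteins of antiviral defence. Type I interferons and interferon lambda act through receptor-bound JAK1 and TYK2 kinases, which phosphorylate factors such as STAT2. STAT2 and IRF9 are parts of ISGF3, a complex that binds the interferon-stimulated response element (ISRE), a repeat of GAAA blocks. Interferon gamma acts through JAK1 and JAK2 and the gamma-activated site (GAS), a TTC to GAA palindrome. The induced genes encode sensors of foreign nucleic acid, enzymes that block translation or degrade RNA, ISG15 and its conjugation system, and GTPases that act on pathogen vacuoles. In injured kidney, nucleic acid released inside or outside cells can engage the same sensors in the absence of a virus.

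RefSeq (GRCm38.p6) gave a promoter window for 30 of the 40 genes, 35 windows in all. No window was taken for Dhx58, Zbp1, Oas2, Mx1, Mx2, Rtp4, Usp18, Parp9, Parp14 and Ifi27l2a. The 160 bases before the start of 7 genes are shown 5′ to 3′ on the gene's own strand, because the levels of these genes went different ways in the results. Oas1a, Ifit1 and Isg15 had positive values in PBS against normal kidneys, Rsad2 and Irf1 were close to 0, and Igtp and Irgm1 lay below 0. The windows on the plus strand are those of Ifit1 at chr19:34640729-34640888, Igtp at chr11:58199396-58199555 and Irf1 at chr11:53769854-53770013. Those on the minus strand are Oas1a at chr5:120907526-120907685, Isg15 at chr4:156200819-156200978, Rsad2 at chr12:26456453-26456612 and Irgm1 at chr11:48871421-48871580.
Oas1a: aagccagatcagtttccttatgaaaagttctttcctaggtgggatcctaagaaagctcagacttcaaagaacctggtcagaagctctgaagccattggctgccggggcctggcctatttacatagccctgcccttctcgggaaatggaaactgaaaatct
Ifit1: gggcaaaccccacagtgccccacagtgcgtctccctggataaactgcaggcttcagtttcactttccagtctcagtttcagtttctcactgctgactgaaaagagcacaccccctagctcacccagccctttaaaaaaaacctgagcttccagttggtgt
Isg15: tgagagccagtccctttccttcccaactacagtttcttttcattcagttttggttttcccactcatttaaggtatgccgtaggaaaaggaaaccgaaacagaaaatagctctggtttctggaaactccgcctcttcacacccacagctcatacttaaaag
Rsad2: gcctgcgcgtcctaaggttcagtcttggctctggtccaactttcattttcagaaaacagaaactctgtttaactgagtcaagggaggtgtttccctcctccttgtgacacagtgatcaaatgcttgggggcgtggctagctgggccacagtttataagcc
Igtp: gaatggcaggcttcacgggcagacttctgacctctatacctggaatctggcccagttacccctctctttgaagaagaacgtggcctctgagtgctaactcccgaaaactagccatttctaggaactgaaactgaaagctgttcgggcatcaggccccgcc
Irgm1: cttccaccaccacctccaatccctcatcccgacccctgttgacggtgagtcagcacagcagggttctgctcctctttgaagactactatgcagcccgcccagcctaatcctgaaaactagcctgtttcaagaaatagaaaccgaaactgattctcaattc
Irf1: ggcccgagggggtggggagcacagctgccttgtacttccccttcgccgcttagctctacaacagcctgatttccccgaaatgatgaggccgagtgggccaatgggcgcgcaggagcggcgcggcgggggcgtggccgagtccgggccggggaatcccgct
The GC content of these windows ran from 43.1% in Isg15 to 69.4% in Irf1, with a median of 53.8% over all 32851 RefSeq windows. Igtp (53.1%) and Irgm1 (50.6%) lay close to Ifit1 (51.2%) and Oas1a (47.5%). Motif matches in these windows are not reported here.

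The 12 libraries held 46.6 to 62.1 M counts, and the sample labels used here name no batch. Markers of the labelled tissue were abundant: 6 proximal tubule genes summed to 18290 to 18770 CPM (reads of a gene per M reads, after TMM scaling of each library) in normal libraries. PBS, EV200 and EV400 libraries had 10270 to 15060, 12080 to 17610 and 15880 to 16520 CPM. Immune markers ran the other way. The sum of 10 macrophage and monocyte markers was 125.9 to 144.4 CPM in normal libraries, 297 to 589 in PBS, 172.3 to 520.3 in EV200 and 118.7 to 261.9 in EV400. None of these 10 was at 0 in all libraries, and of 59 markers of 10 cell types only Ly6g, a neutrophil gene, was. Library PBS 3 stood apart by 38.91 CPM of 4 adipocyte markers, against at most 0.8288 elsewhere.

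Levels can be compared between genes only per length, for which the authors' TPM (length-scaled transcript abundances) were used. Samd9l, a cytoplasmic restriction factor of poxviruses, was the highest of the 40 with a mean of 67.5 TPM over 12 libraries. It was followed by Irgm1 (38.6 TPM), Bst2 (22.1), the tetherin that holds virions at the cell surface, and Ifit3 (17.4). Oas3 was the lowest at 0.273 TPM, below Mx2 (0.811) and Mx1 (1.005). In normal kidney the order began with Samd9l at 66.7 ± 4.48 TPM (SD, n = 3) and Irgm1 at 43.2 ± 15.8. Bst2 (19.6 ± 2.49), Igtp (18.5 ± 11.1), Irf1 (15.4 ± 4.41) and Rsad2 (15.1 ± 1.44) came next, and these 4 neighbours differed by less than the spread of Igtp. Oas2, Oas3, Mx1 and Mx2 were the genes of the 40 under 1 TPM in normal kidney.

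On average, the kidneys given cisplatin and PBS had higher levels of most of these genes than normal kidneys, by moderate amounts. Single libraries overlapped: relative to the normal mean, the log2 median over the 40 was 0.35, -0.16 and -0.13 in normal libraries. It was 0.20, 0.68 and 0.48 in PBS libraries, so PBS 1 lay below normal 1. Oas2, an oligoadenylate synthetase that activates RNase L on double-stranded RNA, was the only one of the 40 that passed the test, at a log2 fold change of 1.39. The largest difference was in Ifi27l2a (1.51), and the GTPases Igtp (-0.96) and Irgm1 (-0.44) lay on the other side. Of all 18730 genes tested, 514 were called (2.74%), at an edgeR quasi-likelihood p adjusted under 0.05 by Benjamini-Hochberg. A call upward was made for 1 of 40 interferon-stimulated genes and 1.84% of all genes, and a call downward for 0 of 40 and 0.902%. A joint test over the 4 groups called 12 genes and 0 of the 40, with 13 of the 40 at an unadjusted p under 0.05 (0.0641% of all genes called, and 19.7% at the unadjusted level). Because whole tissue was sequenced, a change in the number of cells of a type and a change in RNA per cell cannot be told apart.

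Whether called or not, 36 of the 40, Oas2 among them, had a positive log2 fold change, against 50.3% of all genes tested. Their median was 0.42, with 0.002 for all genes. At an unadjusted p under 0.05 there were 20 higher and 2 lower, against 17% and 12.8% of all genes. In 11 of the 40 every PBS library lay above every normal library (20.3% of all genes), and in 2 every PBS library lay below (20%). The median was 0.64 without normal 1, and between 0.34 and 0.56 without any one of the other libraries. DESeq2 called 13 of the 40, 12 higher and Igtp lower, against 10% and 5.18% of the genes to which it gave an adjusted p. Limma-voom with quality weights called 22, all higher, against 17.8% of all genes. It weighted PBS 1, PBS 2 and PBS 3 at 0.666, 0.163 and 3.47, so its PBS values rested mostly on PBS 3. The same weights applied in its other comparisons. Leaving out PBS 3, EV200 3 and EV400 3 together, an alternative chosen after seeing the data, gave 6 called upward (8.15% of all genes) and a median of 0.40.

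The call on Oas2 was narrow. Oas2 lies on chromosome 5 at 120730333 to 120749886 (GRCm38.p6). It had 2.99, 1.95 and 2.22 CPM in the normal libraries and 4.85, 7.06 and 6.92 CPM in the PBS libraries. All PBS libraries were above all normal ones, and means were 2.387 ± 0.539 and 6.275 ± 1.24 CPM (SD, n = 3). The adjusted p was 0.0471 (log2 SE 0.32). Without normal 1, normal 2, normal 3, PBS 2 or PBS 3 Oas2 was not called, with adjusted p of 0.136, 0.164, 0.155, 0.153 and 0.0805. Its log2 fold change was then 1.60, 1.27, 1.35, 1.31 and 1.32, close to the 1.39 of all libraries, and its adjusted p was also above the threshold with no filter on low counts (0.0506). Without PBS 1, the PBS library with the lowest level, its adjusted p was 0.0373 and 11 of the 40 genes were called, all upward, against 7.72% of all genes upward. Macrophage and monocyte markers were also higher in PBS libraries, at a median log2 fold change of 1.83. All 10 were tested and 4 were called upward, against 1.84% of all genes. Of 10 T and NK cell markers 1 was called upward (median 1.08). Of 5 dendritic cell markers 0 were called, with 4 separated upward (20.3% of all genes) and a median of 1.91. B cell, endothelium and plasmacytoid dendritic cell markers had medians of 0.15, 0.01 and 0.05, with 0 called. All 5 erythroid markers were called downward (median -1.19), against 0.902% of all genes. Their summed level was 765.4 to 943 CPM in normal and 284.5 to 458.4 CPM in PBS libraries. The part of these cells in the result was not tested.

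The other oligoadenylate synthetases and their relatives showed the same direction. Oas1a, which makes the same second messenger as Oas2, had 2.79, 2.22 and 1.66 CPM in normal and 3.83, 5.07 and 4.67 CPM in PBS libraries, without overlap (log2 fold change 1.03, adjusted p = 0.0588). Of the distinct 101-base runs in Oas1a transcripts, 40.6% also occur in Oas1g, so the authors' counting may have split reads between them. Oasl2, of the same family, had 8.81, 6.40 and 6.29 CPM in normal and 8.62, 15.61 and 12.66 CPM in PBS libraries. PBS 1 lay below normal 1, so the groups overlapped (0.78, adjusted p = 0.0914). Oas3, the largest synthetase, had a log2 fold change of 1.08 and Oasl1, a repressor of Irf7 translation, one of 0.34. In 4 of these 5 genes the unadjusted p was under 0.05, all higher, against 17% of all genes higher.

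**Figure D1:**
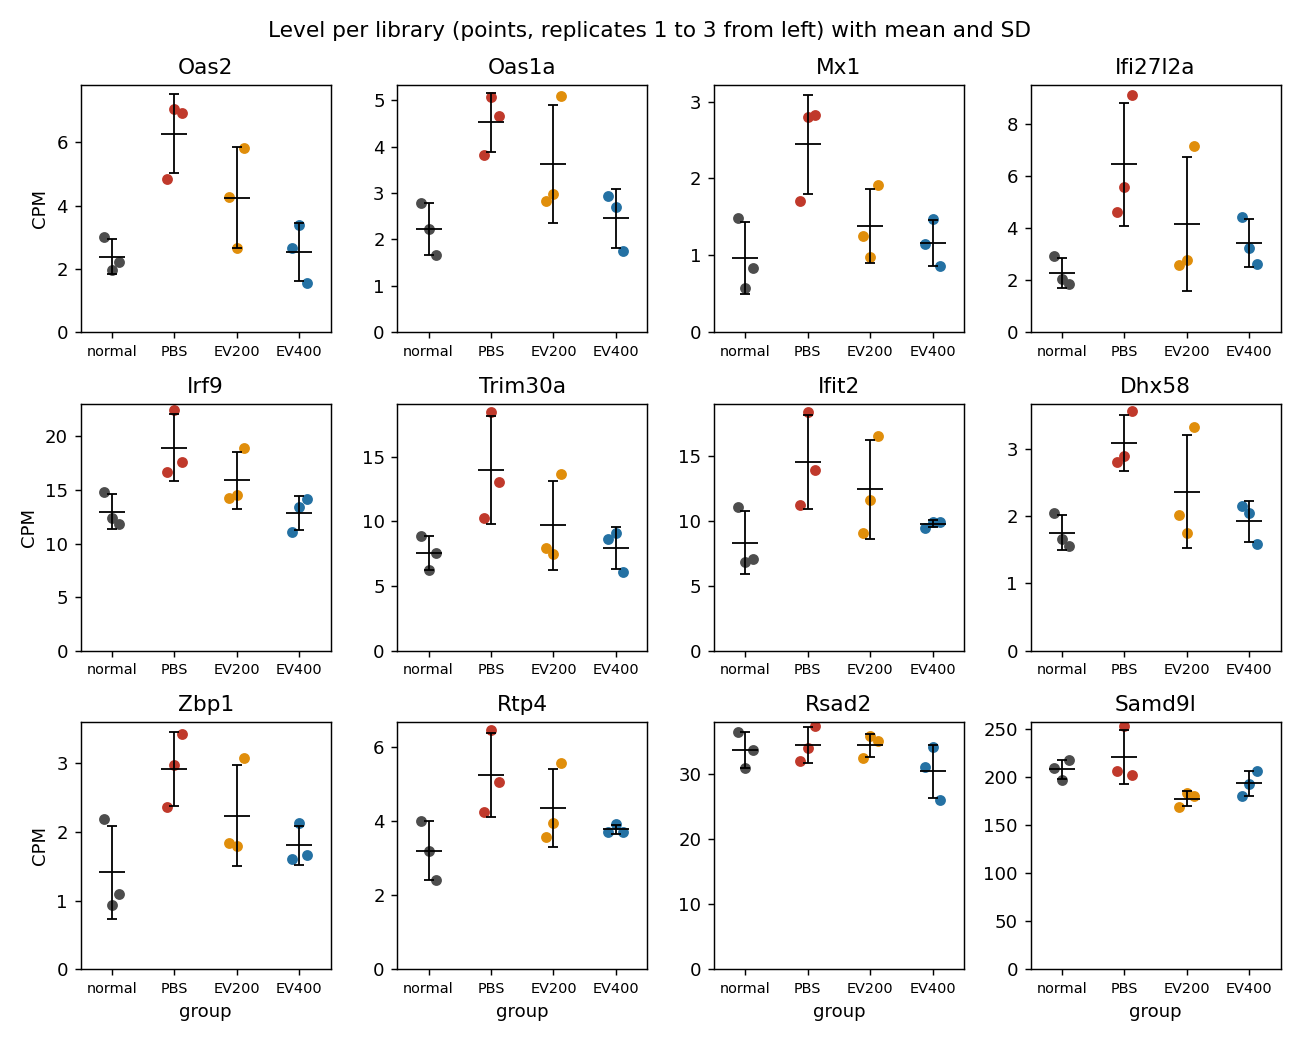
CPM of 12 of the genes in each library (points, replicates 1 to 3 from left to right), with the group mean and SD as a horizontal line and bars. Oas2, Oas1a, Mx1 and Ifi27l2a are higher in all PBS libraries than in normal ones, and Rsad2 and Samd9l are not.

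Among the transcription factors, Irf9, the DNA-binding part of ISGF3, stood highest by fold. It had 14.81, 12.34 and 11.81 CPM in normal and 16.70, 22.48 and 17.58 CPM in PBS libraries, without overlap (0.54, adjusted p = 0.0612). Stat2, its partner in the complex, had 23.44, 17.20 and 17.50 CPM against 21.13, 25.53 and 22.39 CPM. Here normal 1 lay inside the PBS range (0.25, adjusted p = 0.311). Irf7, which amplifies type I interferon production, had a log2 fold change of 0.39 and Irf1, a factor induced mainly through the GAS pathway, one of -0.11. None of these 4 was called.

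All 5 nucleic acid sensors had positive values, from 0.22 for Ifih1 (MDA5, a sensor of long double-stranded RNA) to 1.05 for Zbp1, a Z-form nucleic acid sensor that can start necroptosis. Dhx58 (LGP2), which modulates the RIG-I-like helicases, had 2.05, 1.66 and 1.56 CPM in normal and 2.80, 2.89 and 3.57 CPM in PBS libraries, without overlap (0.81, adjusted p = 0.0710). Ddx58 (RIG-I), the sensor of 5′-triphosphate RNA, had 27.20, 20.69 and 21.98 CPM against 26.68, 41.40 and 29.20 CPM. PBS 2 was the highest, and PBS 1 lay just under normal 1 (0.48, adjusted p = 0.160). Zbp1 did not overlap (adjusted p = 0.0733). Eif2ak2, the kinase PKR that stops translation on double-stranded RNA, had a value of 0.38.

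Of the IFIT proteins, Ifit1 binds viral RNA lacking proper cap methylation. Ifit2 had 11.12, 6.82 and 7.06 CPM in normal and 11.25, 18.45 and 13.93 CPM in PBS libraries. The groups were separated only narrowly, between normal 1 and PBS 1 (0.80, adjusted p = 0.0703). Ifit3 had 19.61, 11.04 and 10.30 CPM against 17.67, 25.82 and 22.32 CPM, with normal 1 inside the PBS range (0.69, adjusted p = 0.103). Of the 101-base runs in Ifit3 transcripts, 31.3% also occur in Ifit3b. Ifit1, which binds the RNA end directly, had a value of 0.63.

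The remaining antiviral effectors divided into a few with large values and several that were flat. Mx1, a dynamin-like GTPase that is defective in most laboratory mouse strains, had 1.49, 0.57 and 0.83 CPM in normal and 1.70, 2.80 and 2.83 CPM in PBS libraries, without overlap (1.34, adjusted p = 0.0612). Rtp4 had 0.72 (adjusted p = 0.0750), also without overlap. Rsad2 (viperin), which makes a chain-terminating nucleotide, had 36.59, 31.02 and 33.75 CPM against 32.11, 34.02 and 37.45 CPM. The groups thus lay on top of each other (0.03, SE 0.11), and so did those of Cmpk2, the kinase gene beside Rsad2 on chromosome 12 (0.03, SE 0.11). Samd9l had 209.16, 197.19 and 217.31 CPM in normal and 206.26, 252.71 and 202.58 CPM in PBS libraries (0.08, SE 0.10). Its small positive value turned to -0.01 without PBS 2 and to -0.02 by limma-voom. Bst2 and Mx2 had 0.11 and 0.40.

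ISG15 is a ubiquitin-like protein, and Usp18 removes it from targets and damps the type I receptor. Their log2 fold changes were 0.36 and 0.45, and that of Herc6, the mouse ligase for ISG15, was 0.37. Trim30a, a ligase of the TRIM family that restrains Toll-like receptor signalling, had 8.89, 6.22 and 7.56 CPM in normal and 10.28, 18.48 and 13.04 CPM in PBS libraries. All PBS libraries lay above the normal ones, with PBS 2 the highest (0.89, adjusted p = 0.0699). Of the ADP-ribosyltransferases and their partner, Dtx3l, a ubiquitin ligase that pairs with Parp9, had 16.50, 14.45 and 13.97 CPM against 17.32, 26.76 and 18.74 CPM, without overlap (0.49, adjusted p = 0.103). Parp14 had 23.06, 14.74 and 18.70 CPM against 20.76, 37.75 and 26.50 CPM, with PBS 1 inside the normal range (0.59, adjusted p = 0.153). Parp9 had 0.24. Exons of Dtx3l and Parp9 overlap on opposite strands over 8% and 9.4% of their exon bases in GENCODE vM21, and the strand setting of the counting is not given in the sources used here.

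Of the other interferon-induced proteins, Ifi27l2a, a small mitochondrial or nuclear-membrane protein, had 2.93, 2.03 and 1.83 CPM in normal and 4.62, 5.57 and 9.11 CPM in PBS libraries. PBS 3 was the highest and no libraries overlapped (1.51, SE 0.40, adjusted p = 0.0577). Ifi44 had 12.02, 9.63 and 9.84 CPM against 10.57, 14.83 and 14.06 CPM, with PBS 1 inside the normal range (0.33, adjusted p = 0.158). Xaf1, a proapoptotic protein, had 0.60 and Ifi35 had 0.19. Exons of Ifi35 overlap those of Gm11626 on the opposite strand over 16.8% of their length.

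**Figure D2:**
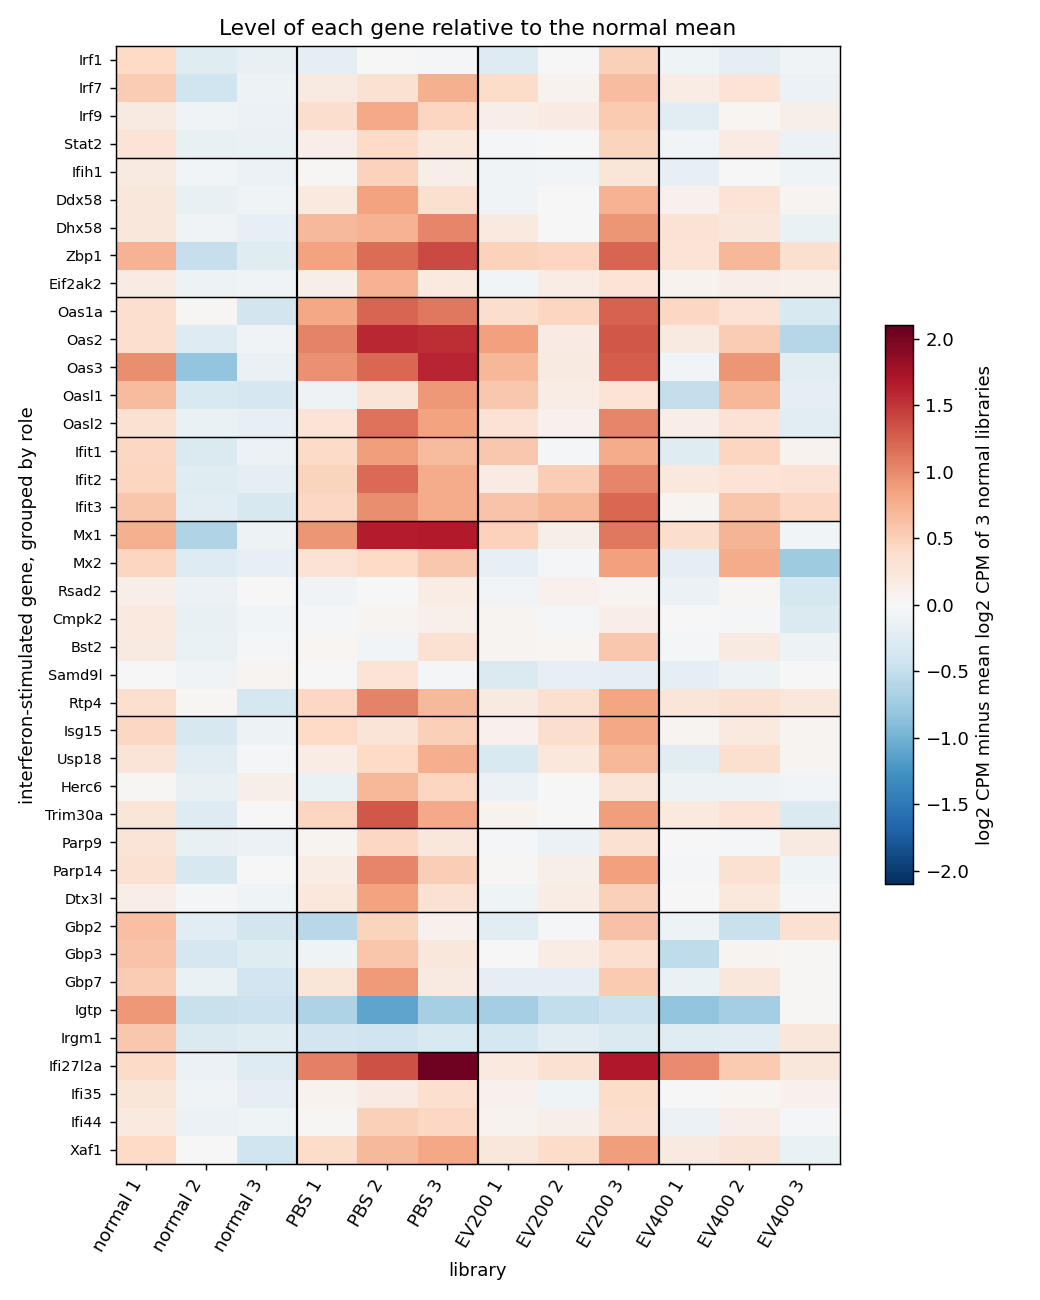
log2 CPM of each gene in each library minus its mean over the 3 normal libraries, with genes grouped by role (thin lines) and libraries by group (thick lines). PBS 2, PBS 3 and EV200 3 are the reddest columns, with medians of 0.68, 0.48 and 0.63, and normal 1 is above normal 2 and normal 3 in 38 of the 40 rows.

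Among the interferon-inducible GTPases, Igtp and Irgm1 lay in the opposite direction from most of the 40 genes. Igtp (Irgm3) and Irgm1 are immunity-related GTPases that guard vacuole membranes and are classic targets of interferon gamma. Igtp had 37.42, 14.47 and 14.68 CPM in normal and 12.72, 9.26 and 12.34 CPM in PBS libraries, so every PBS library lay below every normal one (-0.96, adjusted p = 0.0955). Normal 1 stood far above every other normal and PBS library. Irgm1 had 77.52, 42.70 and 43.89 CPM against 39.61, 39.45 and 42.18 CPM. Again normal 1 stood apart, and the other normal libraries lay only just above the highest PBS library (-0.44, adjusted p = 0.167). The guanylate-binding proteins Gbp2, Gbp3 and Gbp7, which coat such vacuoles and bacteria, had -0.01, 0.20 and 0.43. All 3 were highest in normal 1 among the normal libraries, and in PBS 2 among the PBS libraries.

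**Figure D3:**
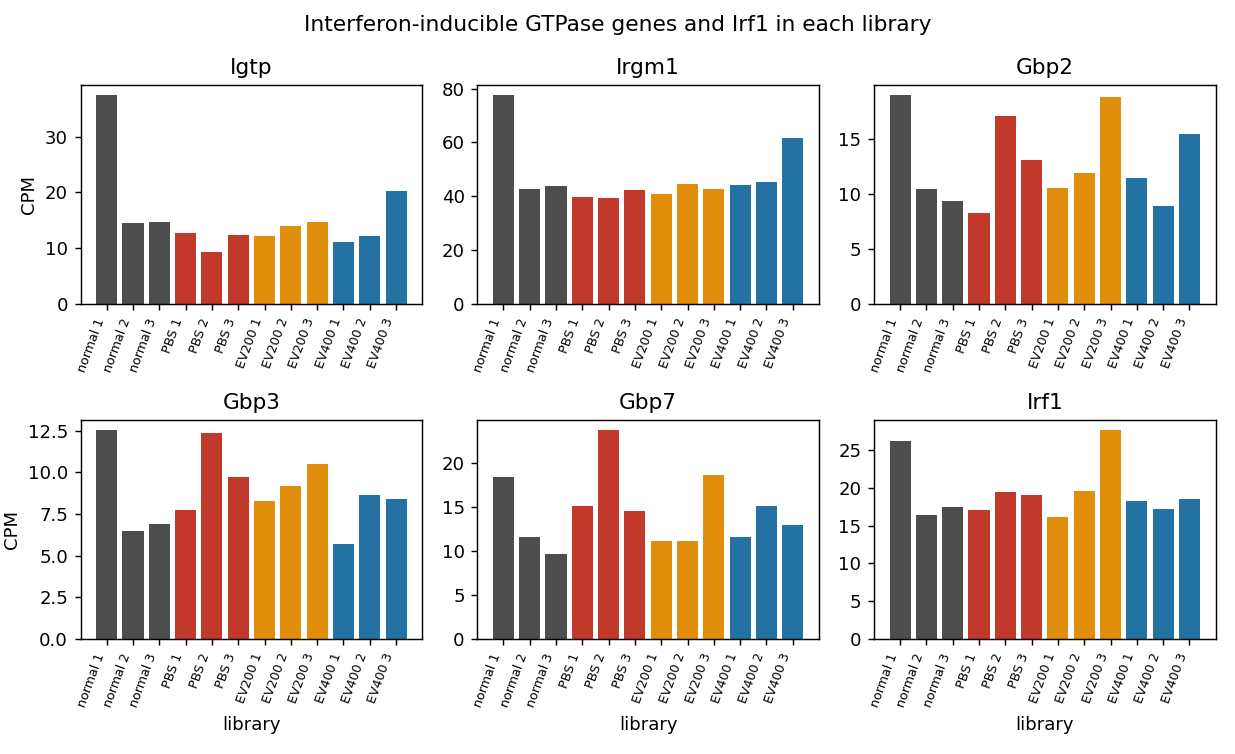
CPM of 5 interferon-inducible GTPase genes and Irf1 in each of the 12 libraries (bars, coloured by group). Igtp and Irgm1 are highest in normal 1 (37.42 and 77.52 CPM) and next in EV400 3 (20.24 and 61.76 CPM), while Gbp3 and Gbp7 also have high bars in PBS 2.

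In kidneys given 200 µg of vesicles after cisplatin, the genes were on balance slightly below the PBS kidneys, and none of the 40 was called. The test called 3 of 18730 genes (0.016%) in this comparison. The median log2 fold change was -0.20 (-0.002 for all genes), with 32 of the 40 below 0 (50.5% of all genes). At an unadjusted p under 0.05 there were 2 of 40, both lower (3.08% of all genes). In Samd9l alone every EV200 library lay below every PBS library (4.94% of all genes), at 168.59, 183.80 and 180.16 CPM (-0.31, adjusted p = 0.657). No other gene of the 40 was separated in either direction, and 10.5% of all genes were. DESeq2 called 0 of the 40, and limma-voom with quality weights called 5 lower (Dhx58, Ifi27l2a, Mx1, Oas2 and Trim30a), against 5.71% of all genes lower.

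The 3 lowest values against PBS were those of Mx1 (-0.82, adjusted p = 0.657), Ifi27l2a (-0.63) and Oas2 (-0.56), and the 3 highest those of Bst2 (0.13), Irf1 (0.19) and Igtp (0.25). Mx1 had 1.25, 0.98 and 1.92 CPM in EV200, and only EV200 3 lay within the PBS range. Oas2 had 4.27, 2.66 and 5.83 CPM, again with EV200 3 inside that range. Ifi27l2a showed the widest gap within the group, at 2.56, 2.75 and 7.13 CPM, the last in EV200 3. Igtp had 12.13, 13.93 and 14.62 CPM and Irgm1 40.89, 44.38 and 42.71 CPM, both close to PBS.

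Among the other genes described by library, EV200 3 also stood apart. Irf9 had 14.23, 14.52 and 18.94 CPM in EV200 1, EV200 2 and EV200 3, and Stat2 18.57, 19.00 and 26.66 CPM. Dhx58 had 2.02, 1.75 and 3.32 CPM and Ddx58 21.99, 23.22 and 38.18 CPM. In these factors and sensors EV200 1 and EV200 2 lay below the lowest PBS library, and EV200 3 lay within or above the PBS range. Oas1a had 2.82, 2.97 and 5.10 CPM and Trim30a 7.91, 7.50 and 13.67 CPM. Parp14 had 18.93, 20.11 and 33.73 CPM and Dtx3l 14.04, 16.73 and 21.11 CPM. In these 4 genes, too, EV200 3 alone reached the PBS range. Oasl2 had 8.71, 7.54 and 14.43 CPM and Ifit2 9.12, 11.65 and 16.59 CPM, with 2 EV200 libraries inside the PBS range in each. Ifi44 had 10.96, 11.34 and 13.42 CPM, all inside that range. The group median of -0.20 depended on single libraries. It was -0.36 without EV200 3, -0.32 without PBS 1, -0.10 without EV200 1 or without EV200 2, and -0.07 without PBS 2.

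After 400 µg of vesicles most levels lay below those of the PBS kidneys, again with 0 of 40 called. The test called 15 genes of 18730 (0.0801%). Among the 40 the median was -0.38 (-0.025 for all genes), and 38 were below 0 (52.9% of all genes). At an unadjusted p under 0.05 there were 14 of 40, all lower, against 12.6% of all genes lower. In 14 of the 40 every EV400 library lay below every PBS library (13.8% of all genes), and in 1, Irgm1, every one lay above (12.2%). DESeq2 called 3 of the 40 lower (Irf9, Oas2 and Trim30a), against 2.7% of the genes with an adjusted p, and limma-voom with quality weights called 15 lower, against 8.73%. The medians of the macrophage and monocyte, dendritic cell and erythroid markers were -0.98, -1.0 and 1.18 in this comparison, with 0 called in each list.

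Oas2 again had the smallest p. It had 2.67, 3.38 and 1.55 CPM in EV400 against 4.85, 7.06 and 6.92 CPM in PBS libraries, without overlap (log2 fold change -1.31, SE 0.32, adjusted p = 0.123). Irf9 had 11.12, 13.37 and 14.14 CPM, all below the lowest PBS library (-0.56, adjusted p = 0.134). Mx1 had 1.15, 1.47 and 0.86 CPM (-1.08, adjusted p = 0.162). The EV400 libraries overlapped the normal ones in all 3 of these genes. Oas3 (-0.97) completed the 3 lowest values, and it too did not overlap, with 0.42, 0.83 and 0.37 CPM against 0.85, 1.01 and 1.32 CPM in PBS libraries.

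Oas1a had 2.94, 2.69 and 1.74 CPM in EV400 (-0.88, adjusted p = 0.152) and Trim30a 8.60, 9.08 and 6.07 CPM (-0.82, adjusted p = 0.158), both below every PBS library. Dhx58 had 2.15, 2.05 and 1.58 CPM (-0.68, adjusted p = 0.169) and Ifit2 9.49, 9.93 and 9.97 CPM (-0.57, adjusted p = 0.197), likewise without overlap. Ifi27l2a had 4.42, 3.23 and 2.62 CPM (-0.91, adjusted p = 0.201). In Ifi27l2a EV400 1 lay just below the lowest PBS library. The other non-overlapping genes were Ifih1, Zbp1, Rtp4, Isg15 and Xaf1, at -0.32, -0.70, -0.48, -0.29 and -0.52.

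Of the other genes described by library, Stat2 had 18.53, 21.51 and 17.53 CPM in EV400 (-0.26) and Ddx58 24.74, 28.15 and 24.06 CPM (-0.34). Oasl2 had 7.78, 8.70 and 6.03 CPM (-0.71) and Ifit3 13.54, 19.59 and 17.66 CPM (-0.37). In each of these 4 genes an EV400 library reached into the PBS range, by way of the low PBS 1. Parp14 had 17.96, 23.07 and 17.41 CPM (-0.54), Dtx3l 14.79, 17.43 and 14.44 CPM (-0.43) and Ifi44 9.58, 11.46 and 10.27 CPM (-0.34). Samd9l had 180.74, 193.10 and 206.11 CPM (-0.19). These overlapped with PBS as well.

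Igtp and Irgm1 were the only 2 of the 40 above 0 in this comparison, and Irf1 was the next at -0.04. Igtp had 11.18, 12.21 and 20.24 CPM in EV400, of which only EV400 3 lay above the PBS range (0.35, adjusted p = 0.528), and its sign turned by limma-voom (-0.05). Irgm1 had 44.17, 45.33 and 61.76 CPM, all above PBS, with EV400 3 again the highest (0.32, adjusted p = 0.326).

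**Figure D4:**
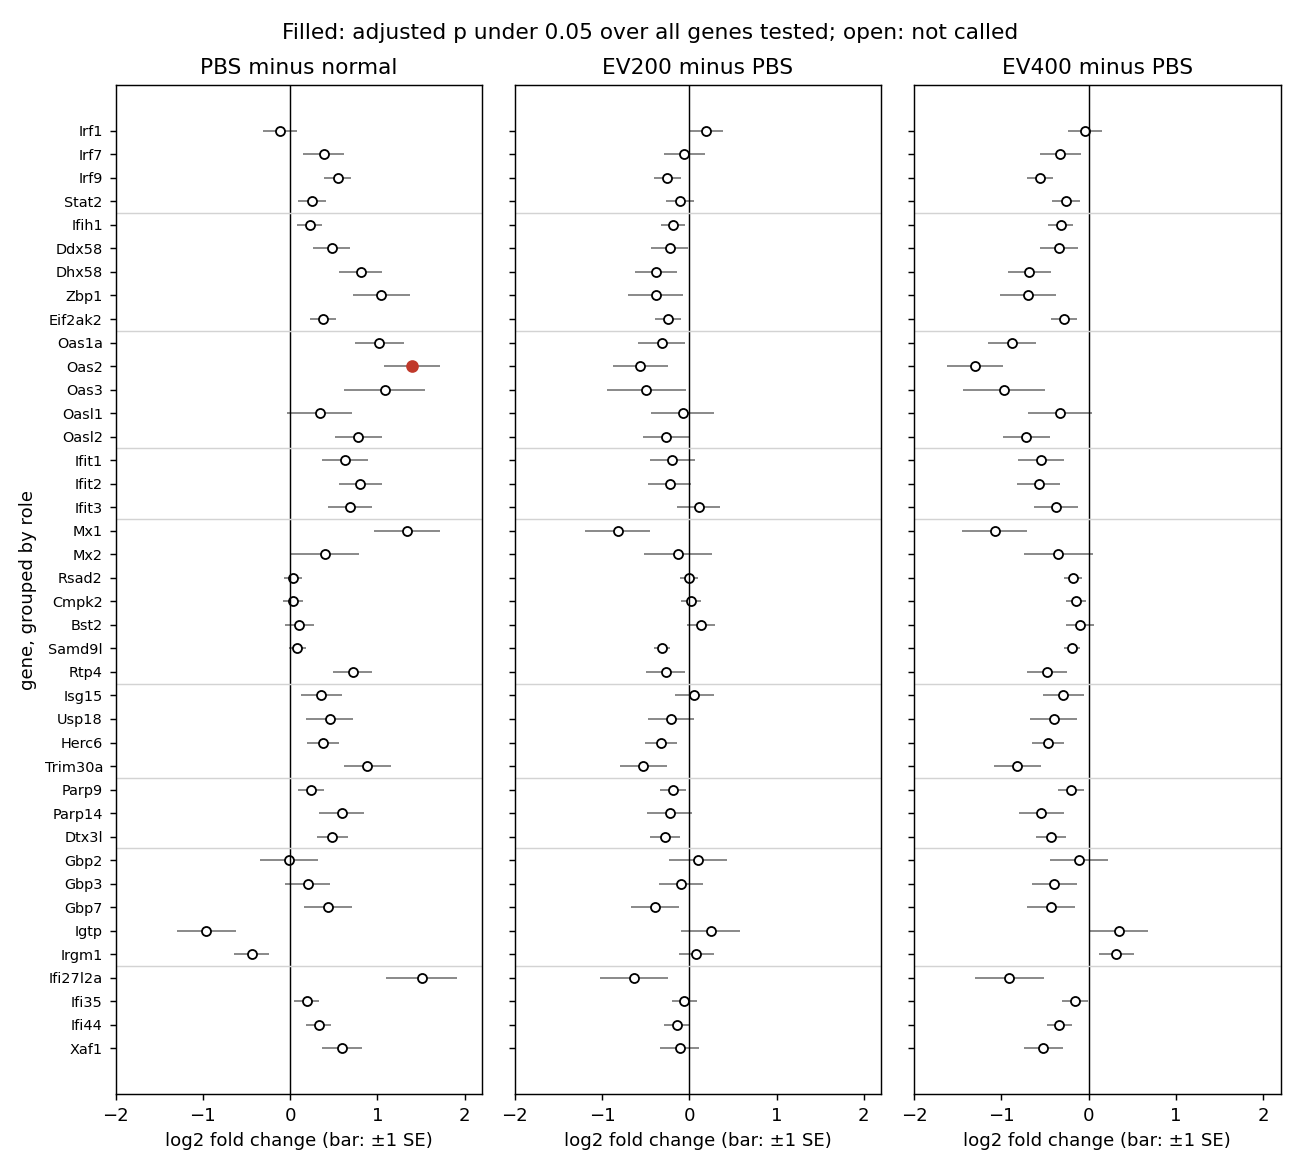
log2 fold change of each of the 40 genes (points, with bars of 1 SE) for PBS minus normal, EV200 minus PBS and EV400 minus PBS, in order of role. A filled point marks a call, which only Oas2 has, in the first panel; the first and the other panels share the PBS libraries.

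The comparisons with PBS share the 3 PBS libraries with the comparison of PBS and normal, so a low or high PBS library moves both in opposite directions. The doses against normal do not use PBS. At 200 µg none of the 40 was called against normal by edgeR, which called 13 genes (0.0694%), and none by DESeq2 or limma-voom. The median was 0.26, at 0.05 without EV200 3 and 0.49 without normal 1, and 37 of the 40 were above 0 (50.8% of all genes). At an unadjusted p under 0.05, 4 were higher (8.86% of all genes) and 1, Samd9l, lower (4.32%). Ifit3 had the smallest p, with 19.79, 21.22 and 29.98 CPM in EV200 (0.79, adjusted p = 0.234). All were above the highest normal library (19.61 CPM in normal 1), EV200 1 only just. Oas1a was also separated upward (0.71; 11.9% of all genes), and Samd9l downward (-0.23; 12.9%). The highest values were those of Ifi27l2a (0.87), Oas2 (0.83) and Ifit3, and the lowest those of Igtp (-0.71), Irgm1 (-0.36) and Samd9l.

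At 400 µg against normal no gene in the table was called by edgeR, at 1308 of 18730 under an unadjusted 0.05 (6.98%), and DESeq2 and limma-voom called 29 and 1481, with 0 of the 40 by each. None of the 40 was under an unadjusted 0.05. The median was 0.05, with 26 above 0 (50.9% of all genes), and it was -0.05 without normal 2 or without EV400 2, -0.01 without normal 3 and 0.25 without normal 1. The highest values were those of Ifi27l2a (0.60), Zbp1 (0.35) and Ifit3 (0.31), and the lowest those of Igtp (-0.61, adjusted p = 0.750, the smallest p of the 40), Gbp3 (-0.19) and Irf1 (-0.15). In none of the 40 were the libraries separated, against 18.8% of all genes. Oas2 thus averaged 2.387 ± 0.539 CPM in normal, 6.275 ± 1.24 in PBS, 4.252 ± 1.59 in EV200 and 2.534 ± 0.92 in EV400 kidneys (SD, n = 3).

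The direct comparison of the doses called 1 gene of 18730 (0.00534%) and 0 of the 40, also 0 of the 40 by DESeq2 and limma-voom. The median of EV400 minus EV200 was -0.23 over the 40 (-0.018 for all genes), with 37 below 0 (53.7% of all genes). It was -0.01 without EV200 3, and so rested on that library. Only Oas2 had an unadjusted p under 0.05 (-0.74, adjusted p = 0.769; 3.81% of all genes lower), and Irf9 and Ifit3 were the only ones separated (5.57% of all genes in that direction). The lowest values after Oas2 were those of Oas1a (-0.56) and Ifit3 (-0.48), and the highest those of Irgm1 (0.24), Samd9l (0.12) and Igtp (0.10). A difference in the interferon-stimulated genes between 200 and 400 µg was therefore not shown by these libraries.

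Within groups, the genes moved together from library to library. Normal 1 was the highest normal library in 38 of the 40 genes (32.6% of all genes tested), and its median over the 40 was 0.35 on the log2 scale above the normal mean. EV200 3 was the highest EV200 library in 36 (41.2%), at a median of 0.63 against 0.07 and 0.09 in EV200 1 and EV200 2. PBS 1 was the lowest PBS library in 34 (37%), at 0.20 against 0.68 and 0.48 in PBS 2 and PBS 3. In EV400, EV400 2 was the highest in 26 (35.4%), at 0.24, while EV400 1 and EV400 3 had -0.03 and -0.04.

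Immune markers varied over the same libraries, in part. In EV200 3 the macrophage and monocyte sum was 520.3 CPM, against 172.3 and 198 in the other EV200 libraries, and in PBS 1, PBS 2 and PBS 3 it was 297, 589 and 381. The sum of 10 T and NK cell markers was 14.38 CPM in EV200 3 and 5.152 and 8.145 in the others of that group. Normal 1 had 7.333 CPM of these T and NK markers, against 4.578 and 4.193 in normal 2 and normal 3, while its macrophage sum of 144.4 was close to theirs (134 and 125.9). EV400 3, which had high Igtp and Irgm1, had the lowest macrophage sum of all 12 libraries (118.7) and 5.332 CPM of T and NK markers, the lowest of its group. The 4 plasmacytoid dendritic cell markers, from a cell type known for type I interferon, summed to 1.544 to 2.227 CPM over all libraries. This narrow range covers opposite directions among the markers. For PBS against normal, Ccr9 had a log2 fold change of 1.56, Pacsin1 0.07, Siglech 0.03 and Cox6a2 -0.70, with 0 called. The part of these cells in the levels of the 40 genes was not tested.

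The interferons themselves were at or near the detection limit. Of 10 ligand genes listed, 8 had a count of 0 in all 12 libraries, among them Ifnb1, Ifna1 and Ifna4, and none passed the filter. Ifna2 had 2 counts, in 1 library. Ifng, the gene of interferon gamma, had 0 counts in all normal libraries, including normal 1. It had 11, 6 and 6 counts in PBS, 0, 0 and 7 in EV200 and 4, 4 and 6 in EV400 libraries. Every PBS and EV400 library thus held a few reads of Ifng and no normal library did, but the gene did not pass the filter and was not tested. For the ligand genes at 0 in all libraries no level was detectable at this depth.

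Among the other genes of the pathway, Tlr9 was the only one called for PBS against normal. Of 9 receptor and kinase genes none was called for PBS against normal, and their median was 0.10. At an unadjusted p under 0.05, 1 was higher, against 17% of all genes. Ifngr1, the ligand-binding chain of the interferon gamma receptor, was the first of them by p (43.3 ± 5.37 against 29.92 ± 2.23 CPM, adjusted p = 0.0723). Among transcription factors outside the 40, Irf4, a factor of lymphoid and alternatively activated myeloid cells, had 3.765 ± 1.91 against 1.139 ± 0.265 CPM (1.73, adjusted p = 0.0616). Of 16 genes of nucleic acid sensing, Tlr9, the endosomal receptor of unmethylated DNA, was called (1.92, adjusted p = 0.0471). Upward calls were made for 1.84% of all genes. Tlr9 had 1.1359, 0.6774 and 0.7681 CPM in normal and 2.4032, 4.4907 and 2.8798 CPM in PBS libraries. Its call was as narrow as that of Oas2: with 1 library left out, calls over all genes fell as low as 0. The median of these 16 was 0.71. At an unadjusted p under 0.05, 10 were higher and 2, the adaptor Ticam1 and the ligase Trim25, lower, against 17% and 12.8% of all genes. In 8 the libraries were separated upward and in 1, Trim25, downward, against 20.3% and 20%.

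Of 6 negative regulators none was called, and 2 were higher at an unadjusted p under 0.05, against 17% of all genes. Socs3, a feedback inhibitor of JAK signalling that also responds to interleukin-6, had 6.333 ± 1.88 CPM in PBS against 1.801 ± 0.168 in normal kidneys (1.82, adjusted p = 0.0587). A further list of 47 interferon-induced genes outside the 40, of which 46 were tested, also had 0 called, with 12 higher and 2 lower at an unadjusted p under 0.05 (17% and 12.8% of all genes) and a median of 0.26. Its first gene by p, Parp10, an ADP-ribosyltransferase, lay in the opposite direction (29.19 ± 5.93 against 42.35 ± 3.78 CPM, -0.54, adjusted p = 0.0588). For EV400 against PBS none of the tested genes of these lists was called, with 8 of the 46 further interferon-induced genes and 6 of the 16 sensing genes lower at an unadjusted p under 0.05, against 12.6% of all genes. In each of these lists 1 gene was higher at that level.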

How the data were processed

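The libraries were stranded and poly(A)-selected, with paired ends of 101 bases, as the labels' protocols state. Per the submitters' processing notes, the tools were HISAT2 2.1.0, StringTie 2.1.3b, Trimmomatic 0.38 and FastQC 0.11.7, and the builds mm10 and GRCm38. For the read counter and its strand setting, nothing is given in the sources used here. In 1 table, the authors deposited whole-number read counts and TPM values per gene, per the file headers. Counts were used as deposited for every test, TPM for levels compared between genes, and 12 further per-sample columns (FPKM) were not used.

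In R 4.3.3, edgeR 4.0.16 fitted all 12 libraries at once (TMM, default expression filter by group, quasi-likelihood test, 8 residual degrees of freedom), with Benjamini-Hochberg adjustment over 18730 genes and calls under 0.05. Standard errors were computed as the absolute log2 fold change over the square root of F. The 6 comparisons are all pairs of the 4 groups. The scripts were tested on simulated data. Promoters were read from RefSeq; a motif search made on them is left out, since the motif letters are in none of the sources used here. Alternatives used DESeq2 1.42.0 (its size factors, and its test), limma-voom with quality weights (limma 3.58.1), other filters, a replicate block, the compared groups alone, and single libraries left out. The labels call the libraries of a group biological replicates without stating that each is another mouse, so p-values cover the spread among these libraries.

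The 40 genes, their roles and the lists were chosen with earlier results of these data known, so no list was tested. Values by library were given for each called gene and, in each role, for the gene with the smallest p for PBS against normal and the one with the highest CPM. Each comparison names the 3 highest and 3 lowest fold changes and the smallest p. Lists of other genes name the called gene, or else the first by p. Rsad2, Gbp2, Gbp3, Gbp7 and other values outside this rule complete the 40. Part of the pathway outside the 40 genes is not reported here.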

Additional observations from a re-analysis of the deposited data

How the results depend on the processing

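The scaling factors of DESeq2 and a minimum of 10 counts in every library of a group kept every count of calls within 1.5 times. For PBS against normal, the 514 calls became 299 without a filter, 2776 by DESeq2, 6164 by limma-voom, 1449 with these groups alone, 2319 with PBS 3, EV200 3 and EV400 3 left out (chosen after seeing the data) and 0 to 2277 without 1 library. The 1 call among the 40 became 0, 13, 22, 4, 6 and 0 to 11. For EV200 against PBS, 3 calls became 40 by DESeq2, 1649 by limma-voom, 0 with these groups alone, 9 without the 3 libraries and 1 to 6 without 1 library, with 5 of the 40 by limma-voom. For EV400 against PBS, 15 became 877, 2731 and 2 with these groups alone, and 0 to 26 without 1 library, with 3 and 15 of the 40 by DESeq2 and limma-voom. Between the doses, 1 became 13, 145, 0 with these groups alone and 0 without the 3 libraries, where the median over the 40 moved from -0.23 to 0.02. For EV200 against normal, 13 became 491, 1098, 28 with these groups alone, 1 without the 3 libraries and 2 to 58 without 1 library. For EV400 against normal, 0 became 29, 1481 and 6 without the 3 libraries. Limma-voom gave PBS 3 and EV400 1 weights of 3.47 and 3.38, and PBS 2 and EV200 3 weights of 0.163 and 0.283. For these shifts the cause was not tested. With the replicate number as a block, calls were 0 for PBS against normal (0 of the 40), 0 for EV200 against PBS, 0 between the doses and 6 for EV200 against normal. Deviations from the group means had correlations of -0.39 to 0.34 between same-numbered libraries, and of -0.46 to 0.49 between differently numbered ones. With 3 libraries a group, these values neither show nor exclude pairing by number. The replicate number is that of the titles, and the sample numbers in the file headers mostly differ between same-numbered libraries. Values changed sign for Samd9l, PBS against normal (-0.02 by limma-voom, -0.01 without PBS 2, to 0.14 without PBS 3), for Ifit3, EV200 against PBS (-0.01 by limma-voom, -0.02 without PBS 1, -0.10 without EV200 3, to 0.25 without PBS 2, and -0.09 without the 3 libraries), for Parp14, EV200 against PBS (0.04 without PBS 2, down to -0.54 without EV200 3), and for Igtp, EV400 against PBS (-0.05 by limma-voom). With 3 libraries a group, which of the moderate differences of these genes passed the threshold depended on the tool. Where a group fell to 2 libraries, its spread was pooled with the others.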

Other observations

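Among the interferon-inducible GTPases outside the 40 genes, Irgm2, Tgtp1 and Gbp6 were, like Igtp, highest in normal 1 and next highest in EV400 3. They were chosen for description after their values were seen. Tgtp2 (31.1075 CPM in normal 1 and 19.5425 CPM in EV400 3) and Gbp4 (19.35 and 12.6111 CPM) had the same order, and others differed. Gbp9 was highest in PBS 2 (19.9267 CPM) and EV200 3 (19.6524 CPM), with 13.7702 CPM in EV400 3, and Gbp5 had 4.8823 CPM in normal 1, 4.7795 in PBS 2 and 3.8019 in EV400 3. Irgm2, an immunity-related GTPase beside Igtp on chromosome 11, had 51.5735, 22.7038 and 22.337 CPM in the normal libraries, 19.2049 to 23.8424 CPM in PBS and 33.4982 CPM in EV400 3. Exons of Igtp and Irgm2 overlap on the same strand, over 8.01% of the exon bases of Igtp. Tgtp1, a GTPase first found in T cells, had 40.8921 CPM in normal 1 and 24.5499 CPM in EV400 3, against at most 16.4866 CPM in the other libraries. Gbp6, a guanylate-binding protein, had 33.18 CPM in normal 1 and 17.2939 CPM in EV400 3, against at most 14.6768 CPM elsewhere. Irgm2, Tgtp1 and Gbp6 overlapped between PBS and normal, with log2 fold changes of -0.61, -0.89 and -1.13 and edgeR adjusted p of 0.170, 0.170 and 0.0819.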
